A study of Mus musculus with 8 samples.

Results

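The replication-dependent histone genes encode the histones that package newly replicated DNA. They were taken here as the protein-coding genes of the mouse annotation GENCODE M21 whose symbol begins with Hist1h, Hist2h, Hist3h or Hist4. The rule found 67 genes, of which 64 were among the 43309 genes of the count table, and *Hist2h2bb*, *Hist1h2bm* and *Hist1h2bh* were not in it. Of the 64, 37 had 10 or more counts in at least 1 library and were tested with all 16816 genes that met this minimum, and 59 had at least 1 count. The libraries were made from mouse embryonic stem (ES) cells of strain J1 (129SV), grown in serum medium on gelatin with no feeder cells, in 4 groups of 2 libraries. The groups crossed *Zbtb24* genotype, wild type (2lox/+; WT) or knockout (1lox/1lox; KO), with the number of cells used, 1000 or 100, and are called WT1000, KO1000, WT100 and KO100 below. Cells were lysed directly for the SMARTer Ultra Low RNA kit, which primes cDNA on the polyA tail, with 10 PCR cycles for 1000 cells (about 10 ng of RNA) and 18 cycles for 100 cells (about 1 ng), so cell number and PCR cycles changed together. *ZBTB24* is the transcription factor gene mutated in one form of ICF syndrome, a human disorder of immunity and DNA methylation. The labels do not say which clone gave which library, so p-values measure only the spread between these libraries.

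Histones H2A, H2B, H3 and H4 form the core of the nucleosome, and linker histone H1 binds the DNA where it enters and leaves. Cells make these proteins from many small clustered genes without introns, almost only in S phase, when a new chromatin copy is built. Their mRNAs normally end after a conserved stem-loop, which is bound by SLBP and cut by the U7 machinery, and carry no polyA tail, so an oligo-dT library contains only the minority of their RNA that was polyadenylated. Fewer cells in S phase, less histone RNA per cell and a smaller polyadenylated share cannot be told apart in these data.

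The stem-loop was searched in the GENCODE M21 transcripts after the stop codon, as a 16-base pattern that begins with GG, ends with CC, has fixed letters in its loop and has all 6 stem positions able to pair. It was found in a transcript of 46 of the 67 genes. Taking the longest transcript of each gene it was in 67.2% of histone genes, against 0.147% of the 21799 other protein-coding genes. It lay 21 to 58 bases after the stop codon (median 31), and 15 of the 21 genes without it have at most 2 bases annotated after the stop codon. The loops of 7 genes described below are shown with 5 transcript bases on each side (3 after the loop of *Hist1h2ap*, where its transcript ends), the 16 matched bases in capitals, because the annotated transcripts differ in how far they run on beyond this point.
Hist1h1e: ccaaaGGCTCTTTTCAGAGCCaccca
Hist1h2ae: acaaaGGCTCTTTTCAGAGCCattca
Hist1h2ap: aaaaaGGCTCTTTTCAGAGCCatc
Hist2h2ac: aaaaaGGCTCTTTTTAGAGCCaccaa
Hist1h3c: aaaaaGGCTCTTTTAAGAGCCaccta
Hist1h4d: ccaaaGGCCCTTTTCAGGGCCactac
Hist1h4i: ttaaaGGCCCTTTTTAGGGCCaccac
The capitals of *Hist1h1e*, *Hist1h2ae* and *Hist1h2ap* are identical, and this version was present in 3 H1, 10 H2A, 8 H2B and 5 H3 genes but in no H4 gene. The commonest H4 version, that of *Hist1h4d*, was present in 7 H4 genes. The *Hist1h2ap* transcript ends 3 bases after the loop, whereas annotated transcripts run on for 151 bases in *Hist1h2ae*, 330 in *Hist1h4i*, 770 in *Hist1h4d* and 1153 in *Hist1h1e*. *Hist1h1a* and *Hist1h1b* have 48 and 0 bases annotated after the stop codon, and no loop was found within them. The polyadenylation signal AATAAA was in the last 50 bases of 20.9% of the histone genes' longest transcripts, against 59.4% of the other genes. For *Hist1h2ae* and *Hist1h1c* this end is shown with the signal in capitals, since they are the highest-count genes of their types that have one.
Hist1h2ae: cccagcttctccAATAAAtgggtcaatttt
Hist1h1c: gtgtatgcttctAATAAAaagcgtttagtt

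The 64 genes held 37126 of 107034950 counts, between 0.030% and 0.0422% of each library. In position they are in tight clusters. The 52 genes on chromosome 13 (mm10, 21715763 to 23934851) held 96.7% of the histone counts, 9 genes on chromosome 3 held 2.57%, 2 on chromosome 11 held 0.232% and *Hist4h4* on chromosome 6 held 0.493%. The counts were concentrated in a few genes: *Hist1h2ae* (7590), *Hist1h4d* (7389) and *Hist1h2ap* (7362) together had 60.2% of them, and 12 genes had 90.1%. By level per length (cpm, counts scaled to a library of 1000000, per kb of annotated exon; mean of the 8 libraries), *Hist1h2ap* at 143, *Hist1h2ae* at 100.1 and *Hist1h4d* at 60.9 stood highest. The H1 gene *Hist1h1b* followed at 31.7, above the H2A gene *Hist1h2ab* at 20.2. The next H1 genes were *Hist1h1a* at 16.99 and *Hist1h1e* at 11.6. The highest H2B gene, *Hist1h2bc*, was at 8.76, and the highest H3 gene, *Hist1h3c*, was at 2.12.

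Fragments that mapped to several places were discarded by the authors, and histone genes are near-copies of each other. Stretches of 76 bases, the read length, were therefore compared between each gene's transcripts and those of all other annotated genes, on both strands. Genes annotated over the same bases count as sharing too, so the percentages mix overlap at one place with near-copies elsewhere. *Hist1h2ap*, for example, is overlapped over 28.6% of its exon by *Gm44466* on the opposite strand. The second read of a pair, which can place a fragment, was not considered. In *Hist2h2aa1*, *Hist2h2aa2*, *Hist2h3b* and *Hist2h3c1* every such window occurs in another gene, and these 4 genes had 0 counts in all 8 libraries. Their exons are also wholly overlapped by other genes of the table (*Gm20628*, *Gm20632*, *Gm20633* or *Gm20634*), and fragments in more than one gene were discarded too, so near-copies and overlap cannot be told apart for them. *Hist1h4m*, with 89% of windows shared, was the only other gene at 0, and 0 of 107034950 counts allows a level of up to 0.028 cpm in the fragments that were kept. Since multi-mapped fragments were discarded, this is no limit on the RNA of *Hist1h4m*. The 26 genes with 50% to under 100% of windows shared had a median of 33 counts in all, and 11 of them were tested. The 34 genes with under 50% shared had a median of 124 counts, and 26 were tested. High sharing did not always go with low counts, since *Hist1h2ap*, with 92.6% of windows shared with 37 genes, had the highest level per length of all.

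**Figure D1:**
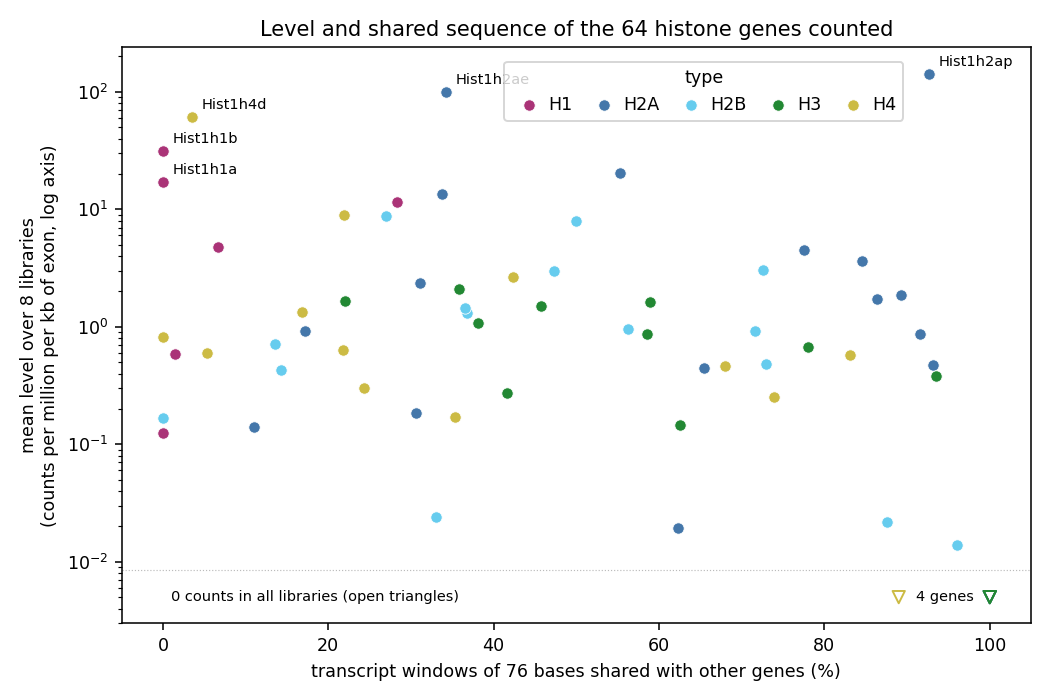
Each point is 1 of the 64 histone genes counted, colored by histone type. The x axis is the percentage of its 76-base windows shared with other genes, including genes annotated over the same bases. The y axis is its mean level over the 8 libraries (cpm per kb of exon, log axis). The 5 genes at 0 (open triangles) lie at 89% and at 100% shared, while *Hist1h2ap* has the highest level at 92.6%.

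Totals ran from 9666985 to 16686525 counts per library, the lowest in replicate 1 of WT100. *Zbtb24* itself was higher in the libraries labelled KO (log2 ratio 1.37 at 1000 cells and 0.91 at 100 cells), over counts of all its exons, which do not show whether a segment is missing, so every direction below refers to the labels. The 8 ES cell markers were present in every library, with a summed level of 5738 to 7246 cpm. In KO100, markers of other cell types were also raised: the 8 neuron markers summed to 392 to 394 cpm (179 to 285 in the other groups), the 6 oligodendrocyte markers to 255 to 263 cpm (42.9 to 53.5) and the 4 astrocyte markers to 174 to 184 cpm (46.9 to 128). *Tubb3* was the largest part of the neuron sum, at a mean of 224 cpm in WT100 and 223 in KO100. *Aldoc* was the largest part of the astrocyte sum (58.3 and 148 cpm). Against WT100, 7 of 8, 6 of 6 and 4 of 4 of the neuron, oligodendrocyte and astrocyte markers passed the test as higher. Of all tested genes 17.6% did. None of these markers was at 0 in KO100. In the same order their median log2 ratios KO/WT at 100 cells were 2.89, 2.88 and 4.89. Their part in the KO results at 100 cells was not tested. Of the other markers, 1 of 3 tested for fibroblasts, 1 of 3 for primitive endoderm and 0 of 1 for trophoblast passed as higher. Replicates agreed least in WT100, where the chi-square per degree of freedom over genes was 17.6, against 3.13 in WT1000, 3.28 in KO1000 and 1.99 in KO100.

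Summed over genes, H1 was the type whose KO/WT ratio differed most between cell numbers. The H1 sum was 67.9 and 75.9 cpm in WT1000, 55.0 and 51.7 in KO1000, 44.2 and 66.6 in WT100, and 96.9 and 105 in KO100. The libraries labelled KO were thus below both WT libraries at 1000 cells and above both at 100 cells, a ratio of means of 0.742 and 1.82. H2A summed to 140.3 and 143.4 cpm in WT1000 and to 187 and 201 in KO1000, without overlap, but to 138.3 and 167 in WT100 and 113 and 222 in KO100. The last 2 values are the lowest and the highest of the 8 libraries, and most of their distance was in *Hist1h2ap*, described below. H2B was at 19.3 ± 3.04, 24.9 ± 1.36, 22.5 ± 0.503 and 23.6 ± 0.157 cpm in WT and KO1000 and WT and KO100 (mean ± SD, n = 2). H3 was lowest throughout, from 5.83 to 9.36 cpm, and H4 ran from 69.8 to 115 cpm. Over all types the sum was 311.8 ± 14.0, 353 ± 4.72, 327.7 ± 58.5 and 394.9 ± 55.9 cpm in the same order, and at 100 cells the KO libraries (355 and 434 cpm) overlapped those of WT (286 and 369 cpm).

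**Figure D2:**
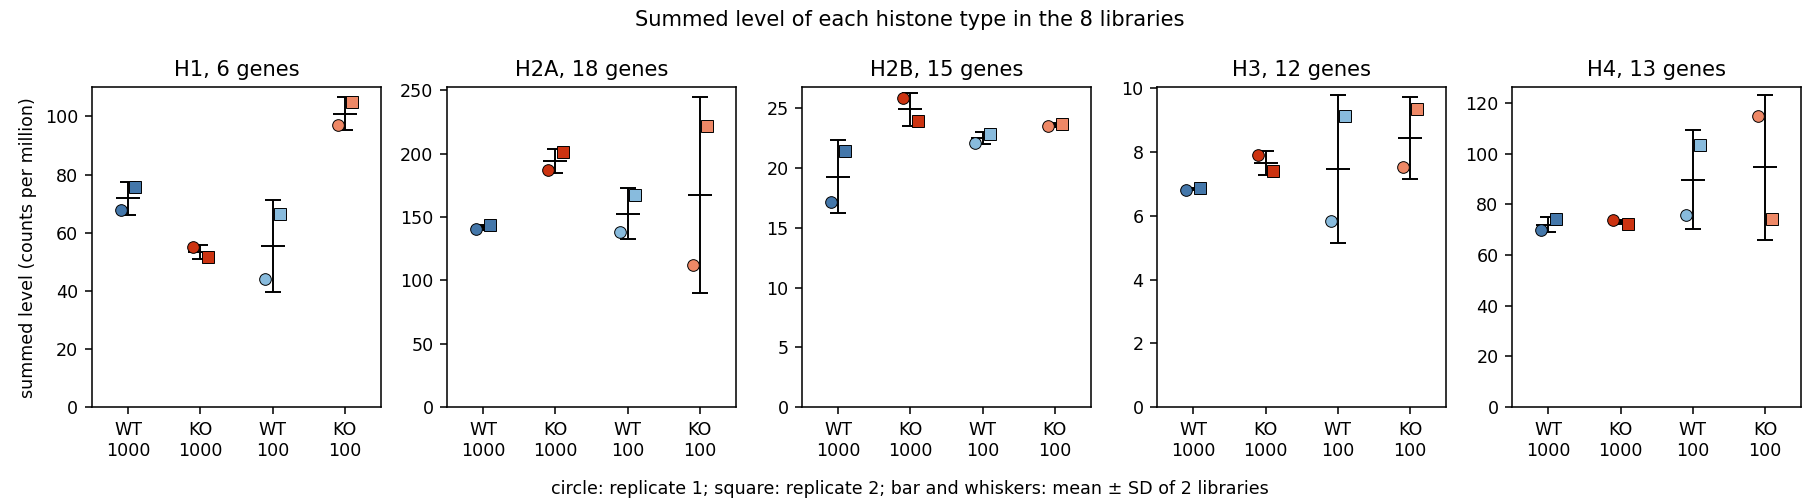
Summed level in cpm (y axis, from 0) of the genes of each histone type in the 4 groups (x axis: genotype label and cell number), with 1 point per library and the mean ± SD of 2 libraries. The H1 sum is lower in KO than in WT1000 and higher at 100 cells, and the 2 KO libraries at 100 cells are far apart for H2A (113 and 222 cpm).

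The H1 genes code for the main linker histone subtypes of dividing cells, and *Hist1h1t*, the testis subtype, had only 13 counts in all and was not tested. *Hist1h1b* (chromosome 13, 21779883 to 21780625, 1 exon) was at 23.0 and 25.3 cpm in WT1000, 16.9 and 17.2 in KO1000, 12.2 and 18.9 in WT100, and 34.6 and 40.2 in KO100. Its lowest library was replicate 1 of WT100 and its highest were both of KO100, and the genotypes did not overlap at either cell number. The log2 ratio KO/WT was −0.49 ± 0.13 (SE) at 1000 cells (quasi-likelihood F-test of edgeR, Benjamini-Hochberg adjusted p = 0.000986), whereas at 100 cells it was 1.21 ± 0.32 (adjusted p = 0.00193), so this gene passed the test at both cell numbers with opposite signs. *Hist1h1e* (chromosome 13, 23620629 to 23622558) was at 19.2 and 22.4 cpm in WT1000, 17.9 and 16.6 in KO1000, 15.8 and 19.0 in WT100, and 34.1 and 33.7 in KO100. Both KO libraries at 100 cells exceeded all 6 others. The ratio was −0.26 ± 0.13 at 1000 cells, not called (edgeR adjusted p = 0.0883, unadjusted p = 0.0411; called with library size alone, −0.35, and without replicate 1 of WT, −0.38, with adjusted p values over the alternatives of 0.0241 to 0.442), and 0.91 ± 0.24 at 100 cells (adjusted p = 0.00175). *Hist1h2be* and *Gm11398* overlap 25.7% of the *Hist1h1e* exon on the same strand.

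*Hist1h1a* (chromosome 13, 23763666 to 23764406) was at 13.9 and 16.7 cpm in WT1000, 9.24 and 8.78 in KO1000, 6.62 and 14.1 in WT100, and 15.4 and 16.01 in KO100. KO was below WT1000 without overlap. At 100 cells KO was above both WT libraries, which were themselves 2.13-fold apart, a distance reached by 19 of 8711 genes with a mean of 100 or more counts in that pair. The KO/WT log2 ratio at 1000 cells was −0.76 ± 0.18 (edgeR adjusted p = 0.000129), whereas at 100 cells it was 0.53 ± 0.31 (adjusted p = 0.17). Over the alternatives the adjusted p at 100 cells ran from 1.76e-07 to 0.475. Without replicate 2 of WT the ratio was 1.21, against a single WT library, the low one. *Hist1h1d* was lower in KO1000 (log2 ratio −0.74 ± 0.26, edgeR adjusted p = 0.0123; 4.74 and 5.23 cpm in WT, 3.03 and 2.91 in KO), and at 100 cells its ratio was 0.18 (3.75 and 4.90 in WT, 5.07 and 5.13 in KO). The call at 1000 cells was lost without replicate 2 of KO or of WT and with DESeq2 (highest adjusted p = 0.13). *Hist1h1c* had ratios of 0.03 and 0.16 and overlapped between genotypes at both cell numbers. Of the 5 tested H1 genes, 3 were therefore called at 1000 cells, all lower, where 41.5% of all tested genes were called, and 2 at 100 cells, both higher, where 34.2% were.

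**Figure D3:**
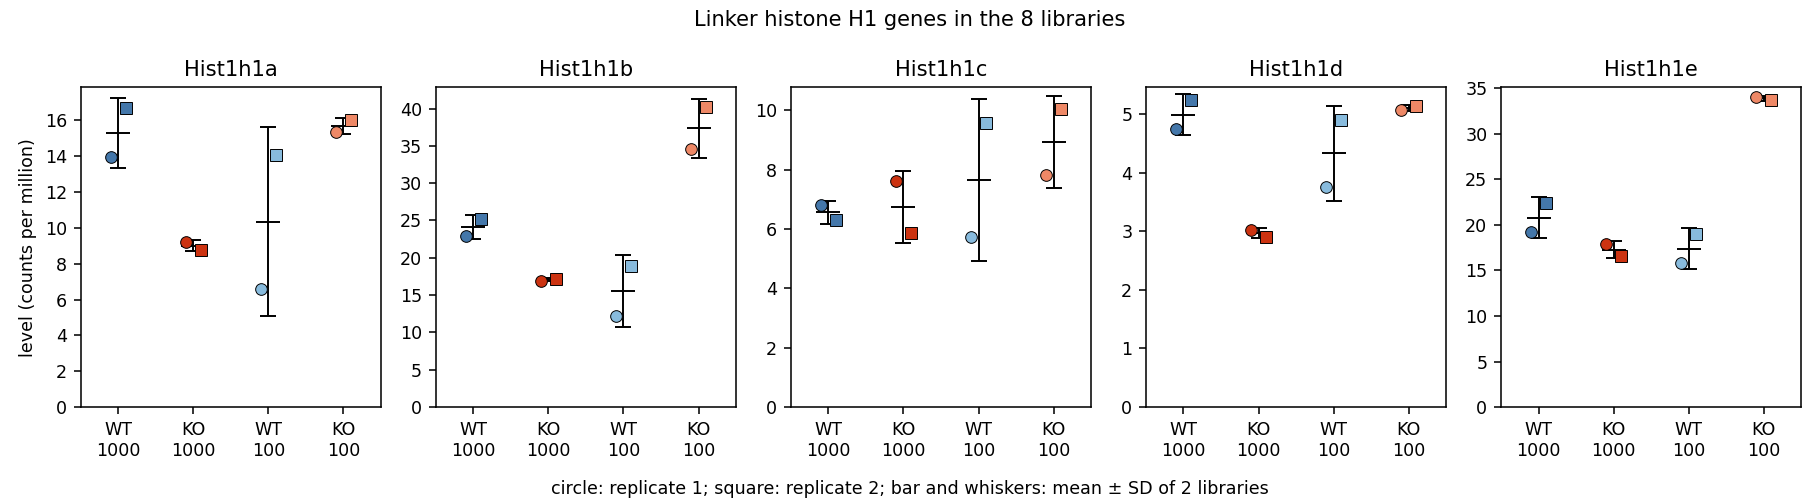
Level in cpm (y axis, from 0) of the 5 tested H1 genes in the 4 groups, with 1 point per library and the mean ± SD of 2 libraries. *Hist1h1b* and *Hist1h1e* are highest in both KO libraries at 100 cells, and *Hist1h1a* and *Hist1h1d* are lowest, among the 1000-cell libraries, in those labelled KO.

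Whether the KO/WT ratio differed between cell numbers was tested with an interaction term. Of the 37 histone genes 3 passed, where 16.3% of all tested genes did (9.28% with a ratio more positive at 100 cells and 7.05% with one more negative), and all 3 were H1 genes with a ratio more positive at 100 cells. The difference in log2 ratio was 1.74 ± 0.37 for *Hist1h1b* (edgeR quasi-likelihood test, adjusted p = 0.000667), 1.32 ± 0.41 for *Hist1h1a* (adjusted p = 0.0173) and 1.22 ± 0.28 for *Hist1h1e* (adjusted p = 0.00169). *Hist1h1d* had 0.97 ± 0.38 (adjusted p = 0.0597) and *Hist1h1c* 0.17 ± 0.34. The median over the 5 H1 genes was 1.22, against 0.003 over all tested genes and −0.07 over the 37 histone genes. The call of *Hist1h1a* was lost without any 1 of the libraries of KO or of WT1000 (highest adjusted p = 0.0781), while those of *Hist1h1b* and *Hist1h1e* were kept without any 1 of the 8 libraries.

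Since 3 of the H1 genes passed this test together, the RefSeq promoters (GRCm38.p6) were examined. Promoters, from 250 bases before to 50 bases after the start, were matched for 62 of the 67 genes and searched on both strands for the letters of the CCAAT box, for TATAAA (the TATA box), for the octamer ATTTGCAT known from H2B promoters and for AAACACA, known as the H1 box. The CCAAT letters were in all 50 promoters of H1, H2A, H2B and H3 genes and in 25% of the 12 H4 promoters, against 37.4% of all 32851 promoters. TATAAA was in 56.5% of histone promoters and 13.6% of all, counted at any distance from the start. In *Hist1h2bp*, for example, the nearest match began 212 bases before the start, at the same site as that of *Hist1h2an* at 33 bases. The octamer was in 38.9% of H2A, 37.5% of H2B and no H1, H3 or H4 promoter, against 1.74% of all, and AAACACA was in 5 of 6 H1 promoters, 2 H2A and 2 H2B promoters, against 7.18% of all. Promoters of neighboring H2A and H2B genes can overlap, so the same site can count for both. The octamer 30 bases before the start of *Hist1h2bk*, for example, is also that of *Hist1h2ah*, 155 bases before its start. The 250 bases before the start are shown for the 3 genes of the interaction and for *Hist1h4i*, the gene that was lower in KO at both cell numbers, with these 4 motifs in capitals on either strand.
Hist1h1b, chr13:21780626-21780875, minus strand: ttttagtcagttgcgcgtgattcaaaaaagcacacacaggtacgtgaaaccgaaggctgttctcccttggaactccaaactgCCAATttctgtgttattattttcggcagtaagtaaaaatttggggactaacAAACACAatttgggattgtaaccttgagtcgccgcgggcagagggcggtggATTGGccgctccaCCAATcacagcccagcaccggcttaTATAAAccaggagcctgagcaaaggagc
Hist1h1e, chr13:23622559-23622808, minus strand: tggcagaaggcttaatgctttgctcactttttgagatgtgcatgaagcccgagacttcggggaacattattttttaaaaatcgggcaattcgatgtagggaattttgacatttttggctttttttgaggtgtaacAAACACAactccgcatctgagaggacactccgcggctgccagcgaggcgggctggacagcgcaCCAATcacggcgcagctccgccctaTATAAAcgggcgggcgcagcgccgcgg
Hist1h1a, chr13:23763418-23763667, plus strand: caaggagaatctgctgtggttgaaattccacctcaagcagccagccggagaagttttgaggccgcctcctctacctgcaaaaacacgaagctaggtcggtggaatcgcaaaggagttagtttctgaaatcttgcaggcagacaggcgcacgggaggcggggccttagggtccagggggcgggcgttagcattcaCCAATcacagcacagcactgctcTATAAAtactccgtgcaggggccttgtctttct
Hist1h4i, chr13:22041363-22041612, minus strand: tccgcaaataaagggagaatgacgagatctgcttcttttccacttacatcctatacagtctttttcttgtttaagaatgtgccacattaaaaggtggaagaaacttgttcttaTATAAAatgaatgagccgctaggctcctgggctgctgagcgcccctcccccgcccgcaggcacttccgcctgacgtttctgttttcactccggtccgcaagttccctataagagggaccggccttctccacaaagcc
In *Hist1h1b* and *Hist1h1e* the H1 box begins 117 and 115 bases before the start, the nearest CCAAT 53 and 52 bases and TATAAA 28 and 27 bases. *Hist1h1a*, which also passed the interaction test, has CCAAT and TATAAA at 56 and 33 bases but no AAACACA in this window, and *Hist1h1d* and *Hist1h1c*, which did not pass it, have AAACACA at 122 and 112 bases. The TATAAA letters of *Hist1h4i* begin 137 bases before its start. Whether any of these motifs has a part in the KO/WT ratios or their difference between cell numbers was not tested.

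Among the H2A genes, *Hist1h2ap* and *Hist1h2ae* held most counts. *Hist1h2ap* (chromosome 13, 21833026 to 21833507) was at 52.2 and 54.7 cpm in WT1000, 87.6 and 96.4 in KO1000, 60.9 and 78.3 in WT100, and 13.7 and 108 in KO100. KO exceeded WT1000 without overlap, with a log2 ratio of 0.79 ± 0.12 (edgeR quasi-likelihood test, adjusted p = 3.33e-09). The call was lost in 1 fit of all 8 libraries (log2 ratio 0.78, adjusted p = 0.249, the highest over the alternatives, from 2.3e-25). At 100 cells the 2 KO libraries, with 184 and 1431 counts, were 7.88-fold apart, and among 9140 genes with a mean of 100 or more counts in that pair no other gene was as far apart. The ratio there was −0.24 ± 0.65 (edgeR adjusted p = 0.796), and without replicate 2 of KO, which left only the low library, it was −2.39. *Hist1h2ae* (chromosome 13, 23570517 to 23571220) was at 69.3 and 69.5 cpm in WT and 79.7 and 84.5 in KO1000, and at 55.5 and 62.0 in WT and 66.4 and 76.9 in KO100. The genotypes did not overlap at either cell number, and the ratios were alike, 0.24 ± 0.08 at 1000 cells (edgeR adjusted p = 0.011) and 0.24 ± 0.14 with 100 cells (adjusted p = 0.158). The call at 1000 cells was lost without replicate 2 of KO, with DESeq2, in 1 fit of all 8 libraries and with library size alone (log2 ratio 0.16), at adjusted p values of up to 0.117.

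*Hist1h2ak*, with 4 to 22 counts per library, was also called higher in KO1000 (log2 ratio 1.48 ± 0.58, edgeR adjusted p = 0.0288), from 10 and 4 counts in WT and 22 and 14 in KO, and the call was lost without replicate 1 of KO or replicate 2 of WT, with DESeq2 and in 1 fit of all 8 libraries. *Hist2h2ac* (chromosome 3, 96220361 to 96220880), one of the few histone genes outside chromosome 13 with many counts, was at 4.05 and 4.33 cpm in WT and 5.05 and 4.43 in KO1000, and at 6.13 and 8.67 in WT and 11.8 and 12.1 in KO100. Every 100-cell library was above every 1000-cell library, and the KO libraries at 100 cells were the highest. Its ratio KO/WT was 0.63 ± 0.26 at 100 cells (edgeR adjusted p = 0.0428) and 0.18 with 1000 cells (adjusted p = 0.557). The call at 100 cells was lost without either KO library, with DESeq2 and with a minimum of 1 count. *Hist1h2ab* was called at neither cell number (log2 ratios −0.19 and 0.43).

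Of the H4 genes, *Hist1h4d* (chromosome 13, 23581598 to 23582735) alone held 84.2% of counts. It was at 56.6 and 57.9 cpm in WT and 61.5 and 59.7 in KO1000, and at 61.2 and 86.1 in WT and 106 and 65.8 in KO100, where the genotypes overlapped. Its ratios KO/WT were 0.08 ± 0.08 and 0.17 ± 0.22 (edgeR adjusted p = 0.441 and 0.567). The KO libraries at 100 cells differed 1.61-fold, a distance reached by 5 of the 9140 genes, with replicate 1 the higher one, whereas for *Hist1h2ap* replicate 1 was the lower one. *Hist1h4i* (chromosome 13, 22040636 to 22041362) was at 7.11 and 9.65 cpm in WT and 4.74 and 6.16 in KO1000, and at 8.003 and 9.80 in WT and 3.21 and 3.10 in KO100. All 4 KO libraries were below all 4 WT libraries. Its log2 ratios were −0.60 ± 0.22 with 1000 cells (edgeR adjusted p = 0.0186) and −1.54 ± 0.39 with 100 cells (adjusted p = 0.00147), and it was the only histone gene to pass the test with the same sign at both. At 1000 cells the call was lost without replicate 1 of KO (log2 ratio −0.38) or replicate 2 of WT and with DESeq2, with adjusted p values over the alternatives from 0.00236 to 0.198. *Hist1h4h*, from 9 to 26 counts per library, had ratios of 0.64 and −0.25 and was not called.

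**Figure D4:**
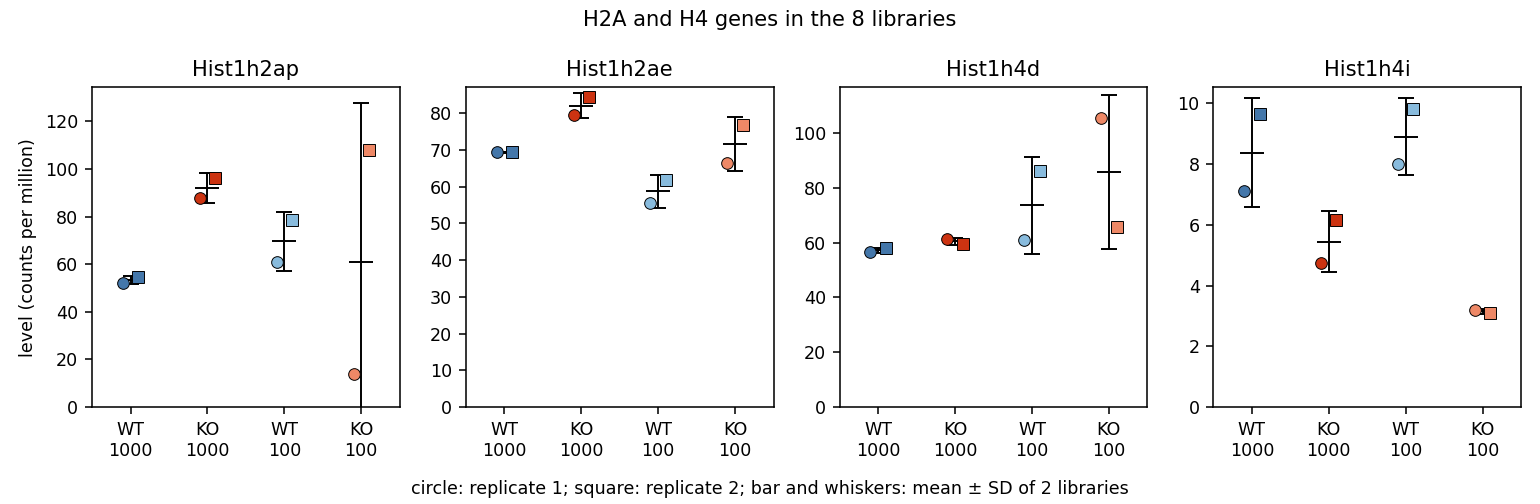
Level in cpm (y axis, from 0) of *Hist1h2ap*, *Hist1h2ae*, *Hist1h4d* and *Hist1h4i* in the 4 groups, with 1 point per library and the mean ± SD of 2 libraries. The 2 KO libraries at 100 cells are at 13.7 and 108 cpm for *Hist1h2ap* and in the opposite order for *Hist1h4d*, and all 4 KO libraries are below all WT libraries for *Hist1h4i*.

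H2B and H3 genes gave few counts and few calls. *Hist1h2bc* (chromosome 13, 23684199 to 23692908) is annotated with 2 exons and 742 bases after the stop codon, in which no loop was found. It was at 8.15 and 9.16 cpm in WT and 11.1 and 11.7 in KO1000, and at 10.97 and 11.1 in WT and 10.3 and 8.61 in KO100. KO was higher at 1000 cells (log2 ratio 0.41 ± 0.17, edgeR adjusted p = 0.0376) and below WT100 without passing the test (−0.27, adjusted p = 0.298). The call was lost in 7 of 12 alternatives: without either KO library or replicate 1 of WT, with DESeq2, in 1 fit of all 8 libraries, with library size alone and with a minimum of 1 count. The only H2B gene called at 100 cells was *Hist1h2bg*, with 16, 18, 28 and 27 counts in WT and KO1000 and 10, 16, 40 and 40 in WT and KO100, and a log2 ratio of 1.39 ± 0.49 at 100 cells (edgeR adjusted p = 0.0183), lost without either KO library and with DESeq2. *Hist1h2bj* (33 to 62 counts per library) and *Hist1h2bk* (13 to 27) were not called, with log2 ratios of 0.24 and 0.40 for 1000 cells and of 0.13 for both genes with 100 cells. None of the 6 tested H3 genes was called by the main fit in any comparison. *Hist1h3e* came closest, at 1000 cells (1.10 and 0.74 cpm in WT, 1.94 and 1.73 in KO, edgeR adjusted p = 0.059). It was called there with a replicate block. The highest of them per length were *Hist1h3c* (8 to 29 counts per library; log2 ratios 0.27 and 0.54), *Hist1h3d* (13 to 48; −0.41 and −0.46) and *Hist1h3e* (9 to 25; 0.96 and −0.06).

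Counted together, 8 of the 37 tested histone genes differed between KO and WT1000, or 21.6%, against 41.5% of all tested genes. Of these, 4 were higher (*Hist1h2ap*, *Hist1h2ae*, *Hist1h2ak* and *Hist1h2bc*) and 4 lower (*Hist1h1a*, *Hist1h1b*, *Hist1h1d* and *Hist1h4i*). At 100 cells 5 differed, or 13.5%, against 34.2% of all tested genes, with *Hist1h1b*, *Hist1h1e*, *Hist1h2bg* and *Hist2h2ac* higher and *Hist1h4i* lower. Tested histone genes had a median of 19 counts per library and all tested genes a median of 132. The median log2 ratio of the 37 was 0.19 at 1000 cells and 0.17 at 100 cells, against −0.0009 and −0.001 over all tested genes. The KO and WT libraries did not overlap for 20 of the 37 at 1000 cells and 18 at 100 cells, against 69.3% and 70.1% of all tested genes. All 4 KO libraries were on one side of all 4 WT libraries for 4 histone genes, against 28% of all tested genes. These were *Hist1h4i* (lower) and the low-count *Hist1h2ai*, *Hist1h2bg* and *Hist2h2be* (higher). *Hist1h2ai* (5 to 7 counts in WT) and *Hist2h2be* (2 to 7) reached the minimum of 10 counts only in libraries labelled KO. For these genes the filter itself favored higher values in KO, so their position gives no support.

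**Figure D5:**
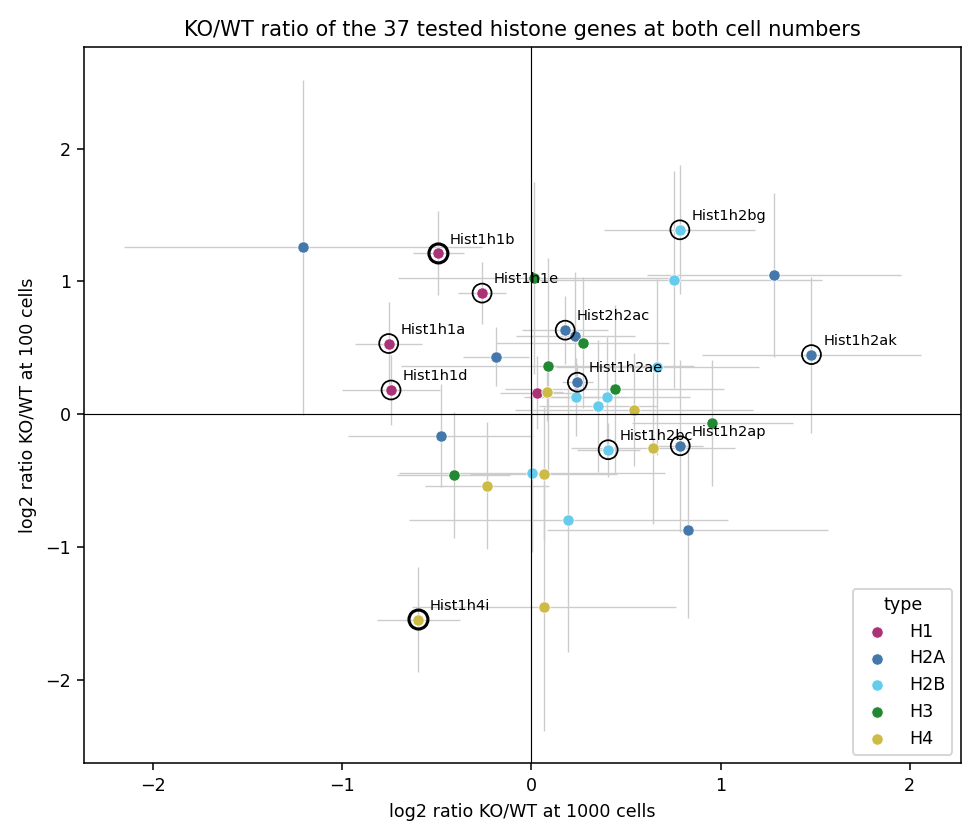
Log2 ratio KO/WT1000 (x axis) and at 100 cells (y axis) of the 37 tested histone genes, colored by type, with standard errors as grey lines. Circled genes passed the test at 1 cell number and thick circles at both: *Hist1h1b* lies at −0.49 and 1.21 and *Hist1h4i* at −0.60 and −1.54.

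Cell number was compared within each genotype to ask how input and amplification affected these genes. Within WT, no histone gene passed the edgeR quasi-likelihood test, and 0.827% of all tested genes did (0.149% higher and 0.678% lower at 100 cells). At an unadjusted p of at most 0.05 there were 7 of 37 (edgeR), and the share of all tested genes at that threshold was not counted. DESeq2 called none of the 37 at an adjusted p of at most 0.05. Leaving out 1 library, which leaves a single sample assumed to vary like the other group, made calls in opposite directions: without replicate 1 of WT100 *Hist1h2ap* (log2 ratio 0.52), *Hist1h4d* (0.55) and *Hist2h2ac* (1.02) were higher at 100 cells, and without replicate 2 *Hist1h1a* (−1.18), *Hist1h1b* (−0.97) and *Hist1h2ae* (−0.31) were lower. Within KO, 13 of the 37 passed (35.1%), against 52.1% of all tested genes, 10 higher and 3 lower at 100 cells. The 5 tested H1 genes were all higher at 100 cells, with log2 ratios (100 over 1000) of 1.13 for *Hist1h1b*, 0.98 for *Hist1h1e*, 0.80 for *Hist1h1a*, 0.78 for *Hist1h1d* and 0.42 for *Hist1h1c*. *Hist2h2ac* rose most, by 1.34 ± 0.22 (edgeR adjusted p = 2.43e-08), followed by the low-count *Hist1h4c*, by 1.13 ± 0.45 (adjusted p = 0.0247; 11 and 9 counts at 1000 cells, 19 and 24 at 100 cells). *Hist1h2ab*, *Hist1h2an* and *Hist1h4d* were the other genes called higher. *Hist1h2be* was lower at 100 cells, at −1.09 ± 0.34 (edgeR adjusted p = 0.00394; 39 and 38 counts at 1000 cells, 15 and 20 at 100 cells), as were *Hist1h4i* at −0.79 and *Hist1h2ae* at −0.19. In WT, where none was called, the log2 ratio had the same sign for *Hist2h2ac* (0.81), *Hist1h4c* (1.58), *Hist1h2be* (−0.89) and *Hist1h2ae* (−0.26). The sign was also the same for *Hist1h1c* (0.21), *Hist1h2ab* (0.12), *Hist1h2an* (0.63) and *Hist1h4d* (0.35). It was opposite for *Hist1h1b* (−0.64), *Hist1h1e* (−0.27), *Hist1h1a* (−0.56), *Hist1h1d* (−0.21) and *Hist1h4i* (0.09). Calls lost without 1 library within KO were those of *Hist1h1c*, *Hist1h2ae*, *Hist1h2an*, *Hist1h2be*, *Hist1h4c*, *Hist1h4d* and *Hist1h4i*, and with DESeq2 those of these 7 genes and *Hist1h1d*. In the same comparison 8 of 8 neuron, 6 of 6 oligodendrocyte and 4 of 4 astrocyte markers were called higher at 100 cells. Their part in these results was not tested. Of all tested genes 27.3% were called higher. Of the other markers, 2 of 3 tested for fibroblasts, 2 of 3 for primitive endoderm and 0 of 1 for trophoblast were.

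Genes for proteins that act on histone mRNA or on its transcription, not all of them specific to histones, showed mixed changes. Of 18 genes for 3′ end processing and decay, 11 passed with 1000 cells (3 higher, 8 lower) and 4 with 100 cells (1 higher, 3 lower), beside 41.5% and 34.2% of all tested genes, which are also the shares to set beside the other lists. *Slbp*, the stem-loop binding protein, was at 329 ± 3.37 cpm in WT and 333 ± 1.22 in KO1000, and at 316 ± 36.1 in WT and 301 ± 6.55 in KO100 (mean ± SD, n = 2), and was not called (log2 ratios 0.01 and −0.12). *Eri1*, the exonuclease that trims the loop's end, was lower at both cell numbers (146 ± 4.85 against 98.1 ± 4.54 cpm at 1000 cells, 141 ± 0.923 against 109 ± 1.04 at 100 cells; log2 ratios −0.58 and −0.41), as were *Lsm1* of the decapping complex (−0.40 and −0.84) and the cap-binding gene *Ncbp2* (−0.36 and −0.46). *Upf1*, a helicase of mRNA decay, had opposite signs, −0.50 and 1.05, both past the threshold. Of 10 genes for histone gene transcription, 2 were called at 1000 cells, both lower, and 4 at 100 cells, with *E2f1* higher (0.54) and *Ccne2*, *Cdk2* and *Hinfp* lower. *Npat*, the coactivator specific to histone loci, was not called (0.08 and −0.13).

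Of 11 histone genes outside the 67, listed here as replication-independent, 8 were called at each cell number, 5 higher and 3 lower at 1000 cells and 4 higher and 4 lower at 100 cells, and 7 were called at both with the same sign. Higher in KO were the linker histones *H1f0* (0.75 and 0.96) and *H1fx* (1.26 and 2.07), *H2afy*, which codes for macroH2A1 (0.74 and 1.17), and *H3f3a*, which codes for H3.3 (0.43 and 0.63). *H1f0* was at 37.4 and 31.7 cpm in WT and 58.5 and 58.8 in KO1000, and at 25.5 and 35.7 in WT and 58.1 and 65.1 in KO100, without overlap at either. This linker histone gene was therefore higher in KO also at 1000 cells, where 3 replication-dependent H1 genes were lower. Lower in KO were *H2afj* (−0.59 and −0.74), *H2afx* (−0.88 and −0.38) and *H2afz* (−0.24 and −0.52). Of 15 histone chaperone genes 9 passed with 1000 cells (2 higher, 7 lower) and 4 with 100 cells (3 higher, 1 lower). *Atrx*, an H3.3 remodeler, was lower at both (−0.72 and −0.58), whereas *Chaf1a* of the CAF-1 assembly factor (−0.82 and 0.65) and *Supt16* of the FACT complex (−0.37 and 0.66) were lower at 1000 and higher at 100 cells. Of 20 S phase genes, 10 passed with 1000 cells (7 higher, 3 lower) and 10 with 100 cells (6 higher, 4 lower). The MCM helicase genes *Mcm3*, *Mcm4* and *Mcm6* were higher at both (0.64 and 0.62, 0.38 and 0.47, and 0.85 and 1.07), as was *Dtl* (0.76 and 0.33), and *Gins2*, which codes for a subunit of the GINS replication complex, was lower at both (−0.23 and −0.41). The median log2 ratio of this list was −0.02 at 1000 cells and 0.13 at 100 cells, against −0.0009 and −0.001 over all tested genes.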

How the data were processed

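RNA-Seq was analysed in 8 libraries, 2 in each of 4 groups taken from the genotype and cell number labels. The authors mapped 76-base paired reads to mm10 and counted fragments per gene of GENCODE M4 with HTSeq 0.6.1 (processing notes of the labels also name TopHat2 2.0.10 and Bowtie2 2.1.0), discarding multi-mapped fragments. The deposited values are raw counts per gene, one column per library, with no normalization. Gene names, exons and transcripts came from GENCODE M21, in which 42425 of 43309 identifiers were found, and its models can differ from those used for counting. Cpm are counts scaled to a library of 1000000 after TMM scaling, and levels between genes are given per kb of annotated exon. For each comparison, the libraries compared (all 8 for the interaction) were fitted in edgeR 4.0.16 (R 4.3.3) with TMM factors and the quasi-likelihood F-test over all genes with 10 or more counts in at least 1 library. A gene was called where its p, corrected by Benjamini-Hochberg over all of them, was 0.05 or less. Standard errors were derived as the log2 ratio divided by the normal quantile of its p. DESeq2 1.42.0 and limma 3.58.1 were alternatives, with other scalings and filters, a replicate block and each library left out. The fits were also run on simulated counts with the same dispersion for every gene and group. A first run missed its limit on false calls, and a changed limit, set before the later runs, was met. Since replicate spread differs between the real groups (17.6 in WT100, 1.99 in KO100), the simulation cannot show the error rate in these data. Floors cover counting error only, whereas standard errors and SDs include the spread between these libraries. The libraries do not mark strand, so overlapping genes cannot be separated. Genes were named as the 3 highest per length in each type, the genes called at both cell numbers with the same sign, and the 3 largest called changes in each direction for cell number and interaction. Others were named after their values were seen. The members and all gene lists were chosen with earlier results of these data known, so they give no independent support. Promoters are from RefSeq (GRCm38.p6). Python 3.11.15 and pandas 2.3.3 were used for the tables.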

Additional observations from a re-analysis of the deposited data

Results flagged for a closer look

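There were 3 results singled out because the KO/WT ratio of a gene differed between cell numbers by a test of the difference itself (interaction term of the edgeR quasi-likelihood fit, Benjamini-Hochberg adjusted). The log2 ratio was higher at 100 than at 1000 cells by 1.74 for *Hist1h1b*, by 1.32 for *Hist1h1a* and by 1.22 for *Hist1h1e*. Values in all 8 libraries are given above for each. Over the alternatives, their adjusted p ran from 4.79e-14 to 0.0091 for *Hist1h1b*, from 8.93e-08 to 0.0781 for *Hist1h1a* and from 6.24e-07 to 0.0176 for *Hist1h1e*. *Hist1h1b* and *Hist1h1e* passed in each of 15 alternatives and *Hist1h1a* in 9 of 15. Markers of neurons, oligodendrocytes and astrocytes were also raised in KO100, and their part in these results was not tested.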

How the results depend on the processing

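The counts of histone genes called changed with the processing as follows. For KO against WT at 1000 cells (8), 1 fit of all 8 libraries gave 4, DESeq2 3, a log2 ratio above 1 in size 1, and leaving out 1 library 5 to 8. At 100 cells (5), DESeq2 and a log2 ratio above 1 each gave 3, and leaving out 1 library 3 to 12, with 12 without replicate 2 of WT. For cell number within WT (0), 1 fit of all 8 libraries and a minimum of 1 count each gave 1, and leaving out 1 library 0 to 3. Within KO (13), a minimum of 10 counts in every library gave 8, DESeq2 and a log2 ratio above 1 each 5, and leaving out 1 library 9 to 12. The interaction (3) gave 2 to 7 without 1 library. The log2 ratio KO/WT of the summed histone level at 1000 cells (0.18) was 0.093 by total count and 0.28 per kb, and 0.13 to 0.23 without 1 library. At 100 cells (0.27) it was 0.10 to 0.46. For H1 it was −0.51 to −0.35 and 0.60 to 1.19. The summed H2A ratio at 1000 cells was 0.45, and 0.21 without *Hist1h2ap*. The H1 scaling by total count and the 100-cell H2A sum without *Hist1h2ap* were added after seeing the data. Over 353 recomputed values of the 29 called single-gene ratios, 287 kept the call, 66 lost it and none reversed. Where a library was left out, the lone sample was assumed to vary like the other groups. The causes were not tested. Replicate numbers do not show a shared origin: deviations of same-numbered libraries correlated at 0.11 (1000 cells), 0.121 (100 cells), −0.0987 (WT) and −0.036 (KO). With a replicate block the counts were 9, 7, 0, 14 and 3, adding *Hist1h3e* (log2 ratio 0.99) at 1000 cells, *Hist1h1a* (0.60, edgeR adjusted p = 0.0142) and *Hist1h2ap* (−0.72) at 100 cells, and *Hist1h2ap* (−0.90) between cell numbers in KO.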

Other observations

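In KO100, whose replicates were the closest of the 4 groups (chi-square per degree of freedom 1.99), *Hist1h2ap* was the gene farthest apart between replicates among 9140 genes, 7.88-fold, and *Hist1h4d* was among the 5 farthest, in the opposite order. In the other groups the replicates of *Hist1h2ap* differed 1.05-fold (WT1000), 1.1-fold (KO1000) and 1.29-fold (WT100). These genes were looked up after their counts had been seen.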
